A study of Mus musculus with 20 samples.

Results

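Liver transcripts of mice given high-fat diet (HFD) with a fish-based protein source were compared with those of mice given HFD with beef. The members were taken by column name from the raw count table: the 10 libraries of mice fed fishmeal or salmon filet, 5 of each, were pooled as fish, and the 5 libraries with beef in their names were the comparison group. These are 15 of the 20 libraries in the series; the other 5 are from chow-fed mice and were left out of the tests. All were livers of female C57BL/6J mice, an inbred strain with no engineered allele, that began the study at the age of 8 weeks. The HFD-fed mice received HFD for 10 weeks and then, for a further 10 weeks, isocaloric HFD in which 50% of the protein came from a meal of salmon by-products, from salmon filet or from beef, and livers were taken at 28 weeks of age. The paper reports that these diets also differed in cholesterol, which was highest with fishmeal, and in added soybean oil. The parts of protein source, cholesterol and oil cannot be told apart here. Each library was made from the liver of a single mouse. The question was whether the source being fish at all, in either form, went with a liver transcript pattern that beef did not have, so the genes sought were those displaced in the same direction in both fish groups.

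Mouse 31 carries conflicting labels. The column name in the count table puts it on beef, and the sample label puts it on salmon filet. The paper states that 5 mice of each diet group were sequenced, which holds by the column names and not by the sample labels. It was counted as beef, as the column name has it, and for the genes selected by the naming rule a value with it as salmon filet (11 fish against 4 beef) is given where it ends an unadjusted p under 0.05. Mouse 35, also in the beef group, stood apart in composition. Protein coding genes took 84.3% of its counts against 93.2% to 94.99% in the other HFD libraries, and the ribosomal RNA gene ENSMUSG00000106106 took 12.7% against 2.72% to 4.88%. Library totals ranged from 42526234 to 70266136 counts, and none of the 105 pairs of the 15 libraries held the same values. Where a gene differs in whole liver, fewer cells of a type and less RNA per cell cannot be told apart.

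Fish and beef protein reach the liver in the company of different lipids. Marine oils carry long-chain n-3 fatty acids, which are known to restrain the lipogenic transcription factor SREBP-1c and to act as ligands of PPAR-alpha, the receptor that controls fatty acid oxidation. Cholesterol synthesis in hepatocytes is run by SREBP-2, which is held in the endoplasmic reticulum when sterol is plentiful and is released to switch on the enzymes of the pathway when it is scarce. The proteasome, which recurs below, is the barrel-shaped protease that degrades ubiquitin-tagged proteins, and its core and caps are assembled from many subunits encoded by separate genes.

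Promoters are shown for some of the genes described below. Psme1 and Psma5 were among the protein coding genes with the smallest p that were higher with both fish diets, Lrba had the smallest p of those that were lower with both, and Hsd17b7 and Lss fell with fishmeal and did not pass the test with salmon filet. Each sequence is the 250 bases before the RefSeq transcript start on GRCm38.p6, written in the direction of the gene: Psme1 at chr14:55578244-55578493 (+), Psma5 at chr3:108256676-108256925 (+), Lrba at chr3:86224440-86224689 (+), Hsd17b7 at chr1:169969206-169969455 (-) and Lss at chr10:76531355-76531604 (+). Capitals mark CCAAT on either strand.
Psme1: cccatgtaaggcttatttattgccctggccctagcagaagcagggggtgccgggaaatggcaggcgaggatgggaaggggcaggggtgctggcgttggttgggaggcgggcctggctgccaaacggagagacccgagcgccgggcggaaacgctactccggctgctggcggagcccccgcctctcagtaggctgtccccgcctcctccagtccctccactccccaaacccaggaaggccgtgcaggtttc
Psma5: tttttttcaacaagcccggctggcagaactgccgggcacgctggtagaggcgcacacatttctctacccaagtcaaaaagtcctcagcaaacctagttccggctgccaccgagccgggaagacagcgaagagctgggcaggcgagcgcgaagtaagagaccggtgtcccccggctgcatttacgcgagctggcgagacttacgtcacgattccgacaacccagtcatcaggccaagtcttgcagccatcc
Lrba: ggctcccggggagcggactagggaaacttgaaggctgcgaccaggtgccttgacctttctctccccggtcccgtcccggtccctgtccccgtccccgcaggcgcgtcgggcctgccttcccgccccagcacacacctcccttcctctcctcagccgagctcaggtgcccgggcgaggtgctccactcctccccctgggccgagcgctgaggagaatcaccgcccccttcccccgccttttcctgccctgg
Hsd17b7: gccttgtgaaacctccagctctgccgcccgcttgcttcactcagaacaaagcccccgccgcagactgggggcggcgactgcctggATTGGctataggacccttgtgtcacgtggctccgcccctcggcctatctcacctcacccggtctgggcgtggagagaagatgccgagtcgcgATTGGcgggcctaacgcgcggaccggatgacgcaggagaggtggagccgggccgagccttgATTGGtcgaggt
Lss: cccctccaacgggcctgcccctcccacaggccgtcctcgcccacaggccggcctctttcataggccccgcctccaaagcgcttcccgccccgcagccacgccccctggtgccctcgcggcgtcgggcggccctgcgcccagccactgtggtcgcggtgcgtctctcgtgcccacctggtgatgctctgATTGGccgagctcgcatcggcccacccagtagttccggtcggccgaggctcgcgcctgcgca
The letters CCAAT, searched on both strands, occurred in 34.5% of 27025 gene promoters of this length. They were in 8 of the 22 promoters found for shared higher protein coding genes, in 3 of 9 for shared lower ones and in 14 of 16 for the cholesterol synthesis list. The Hsd17b7 window held 3 matches and the Lss window 1, whereas none was in the windows of Psme1, Psma5 or Lrba. The sterol response element letters TCACNCCAC were in 1.04% of all promoters and in 1 of the 16 cholesterol synthesis promoters, that of Hmgcs1. The antioxidant element core TGACNNNGC was in 10.1% of all promoters, and in 5 of 36 promoters of proteasome genes. These counts describe letters in a window and were not tested.

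No gene passed the test when the 10 fish livers were compared with the 5 beef livers. Of 16795 genes tested with edgeR's quasi-likelihood test, 0 (0%) had a Benjamini-Hochberg adjusted p under 0.05, and the smallest adjusted p was 0.9996. At an unadjusted p under 0.05 there were 508 genes, of which 255 (1.52% of genes tested) were higher and 253 (1.51%) lower with fish. At any p, 50.9% of genes had estimates above 0. DESeq2 also called 0 genes and had 771 at an unadjusted p under 0.05, and limma on log2(TPM + 1) called 0 with 651. The smallest p, 0.000468, belonged to Apoo-ps, a processed pseudogene, with a log2 fold change of -1.45. Among the 12643 genes with a mean of at least 1 CPM, the count scaled to library size, the 95% interval of the fold change lay within 2-fold in either direction for 97.5% and within 1.5-fold for 85.1%, and it reached a median of 0.26 to either side on the log2 scale. These intervals are unadjusted and do not mark what could pass adjustment over all genes. Gapdh, with an interval from 0.79 to 3.59 on the log2 scale, had an adjusted p of 0.9996 in edgeR. Smaller differences may also have been missed at this number of livers.

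The rule sought genes that moved in 1 direction in both fish groups. Fishmeal and salmon filet were each set against the same 5 beef libraries in a fit of 3 diet groups, so the contrasts share their controls and any deviation of the beef livers enters both. A gene was counted as shared when its unadjusted p was under 0.05 in both contrasts and the sign was the same. By this count 45 genes (0.268% of genes tested) were higher and 28 (0.167%) were lower with both fish diets. For each contrast by itself, 565 genes (3.36%) had an unadjusted p under 0.05 with fishmeal and 644 (3.83%) with salmon filet. At an adjusted p under 0.05, edgeR called 11 genes with fishmeal (0.0655%), all lower, and 0 with salmon filet (0%), and DESeq2 called 31 and 2. None of the 73 shared genes had an adjusted p under 0.05 in either contrast by edgeR, so they are described as a ranked list and not as changed genes. Their p-values for the pooled fish diets come from the libraries that chose them and are no further support.

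The membership of the shared list was sensitive to single livers. With mouse 31 counted as salmon filet there were 50 higher and 57 lower genes, of which 26 were among the 73. With mouse 31 left out there were 43 and 39, and 33 were among the 73. Without mouse 35 there were 62 and 39, with 38 of the 73 kept, and without both mice 50 and 32, with 24 kept. Dropping mouse 13 left 47 shared genes. Dropping mouse 14 gave 121, mouse 32 gave 132, mouse 39 gave 118 and mouse 40 gave 138. The direction also moved with the scale. On log2(TPM + 1) the split was 108 higher and 18 lower, on log2(TPM + 0.1) it was 112 and 10, and with an offset for gene length it was 29 and 29. Fish and beef libraries failed to overlap for 7 genes (0.0417%): Lrba, the sorting nexin gene Snx2, the E2F family repressor E2f6, the complement protease paralogue C1s2, the pseudogenes 1810014B01Rik and Gm8394, and the unclassified ENSMUSG00000109096. These 7 were found with mouse 31 counted as beef and were named after their values were seen.

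Psme1 had the smallest p of the protein coding genes on the shared higher list, behind the processed pseudogene Gm8186. Psme1, the alpha subunit of a proteasome activator ring, ranged from 41.6 to 74.3 CPM with fish, with a median of 56.3. The beef livers gave 40.9 (mouse 31), 40.2 (mouse 32), 42.5 (mouse 35), 44.7 (mouse 39) and 44.1 (mouse 40). A single salmon filet liver (mouse 26, 41.6 CPM) lay within the beef range. The log2 fold change against beef was 0.43 ± 0.11 (SE) for all fish (unadjusted p = 0.00105 in edgeR's test), 0.48 with fishmeal and 0.39 with salmon filet. It was 0.38 (unadjusted p = 0.0105 in edgeR) with mouse 31 as salmon filet and 0.42 without that mouse. Psma5, an alpha subunit of the core particle, ranged from 34.1 to 45.8 CPM with fish (median 38.5) and was 33.6, 31.0, 25.8, 32.8 and 35.2 in mice 31, 32, 35, 39 and 40. The lowest value was that of mouse 35, and without it the log2 fold change of Psma5 went from 0.29 to 0.22. Neither difference passed adjustment over all genes (adjusted p = 0.9996 in edgeR for both).

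Further proteasome genes lay on the same side. The list of 43 proteasome subunits and activators, drawn up after the values were seen, had 38 members with higher and 5 with lower estimates, and 7 with an unadjusted p under 0.05, all higher. Over all genes tested 50.9% had estimates above 0 and 1.52% were higher at that p. Its median log2 fold change was 0.12, against 0.0026 for all genes tested. Besides Psme1 and Psma5 they were the core subunit genes Psma7 (log2 fold change 0.30), Psmb4 (0.27) and Psmb8 (0.39), the last of which encodes a subunit of the immunoproteasome, and the cap subunit genes Psmd7 (0.20) and Psmc3 (0.19). Of these only Psme1 and Psma5 were shared by the rule. With fishmeal the median of the list was 0.17 and with salmon filet 0.08. Psme1 and Psma5, with 2209 and 1321 bases of exon, fall in the shortest of the 5 length groups described below. That group as a whole had a median log2 fold change of 0.10. The part of gene length in the proteasome list was not tested. Mouse 12, fed fishmeal, had the highest list level of the 15 livers, 0.34 above the mean on the log2 CPM scale. Mice 31, 32 and 35, all counted as beef, had the 3 lowest.

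The other leading shared higher genes had diverse roles. Kctd2, an adaptor for cullin ubiquitin ligases, ranged from 10.9 to 15.1 CPM with fish (median 13.4) and was 10.9, 8.23, 11.2, 10.1 and 11.9 in beef mice 31, 32, 35, 39 and 40. Its log2 fold change was 0.34 ± 0.10 (SE), larger with salmon filet (0.43) than with fishmeal (0.25), but the fish diets were not shown to differ from each other (adjusted p = 0.99 in edgeR). Tspan3, a tetraspanin, ranged from 1.76 to 3.13 CPM with fish and from 1.503 to 1.89 with beef, and Sprn, a prion protein homologue, from 1.52 to 2.65 against 1.01 to 1.58. Their log2 fold changes were 0.49 ± 0.14 and 0.57 ± 0.16 (SE). Car2, which encodes a cytosolic carbonic anhydrase, had a log2 fold change of 0.41 ± 0.12, and Mocs3, required for molybdenum cofactor synthesis, one of 0.46 ± 0.15. Psme1, Psma5, Kctd2, Tspan3, Sprn and Mocs3 kept an unadjusted p under 0.05 in edgeR, DESeq2 and limma in every one of 30 alternative settings, whereas Car2 lost it with mouse 31 as salmon filet (unadjusted p = 0.0587 in edgeR).

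Adam11 and Gapdh had larger differences than the genes above, with a wide spread between livers. Adam11, a non-catalytic member of the ADAM membrane protein family, was 9.07, 8.41, 7.37, 8.28 and 8.97 CPM in the fishmeal livers, above all 5 beef livers, which gave 2.43, 1.68, 4.56, 5.00 and 5.42. The salmon filet livers gave 6.22, 17.4, 6.15, 4.40 and 2.52 and overlapped with beef. The log2 fold change was 1.05 ± 0.35 (SE) for all fish, with 1.156 for fishmeal and 0.94 for salmon filet. With mouse 31 as salmon filet it was 0.83 (unadjusted p = 0.0645 in edgeR). Adam11 is 1 of 7 genes that the study itself picked from these livers, which is not independent evidence. Gapdh, the glycolytic dehydrogenase, ranged from 11.6 to 198 CPM with fish and from 8.31 to 19.0 with beef, a log2 fold change of 2.19 ± 0.66. The mouse genome holds many near-identical Gapdh pseudogenes and the sources used here do not say how reads fitting several genes were counted, so its value is uncertain. Acyp2, a small acylphosphatase with a mean of 1.256 CPM, had a log2 fold change of 0.72 ± 0.24, of which mouse 35 decided part: it was 0.53 without that liver. With mouse 31 as salmon filet the value of Acyp2 was 0.59 (unadjusted p = 0.0506 in edgeR).

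**Figure D1:**
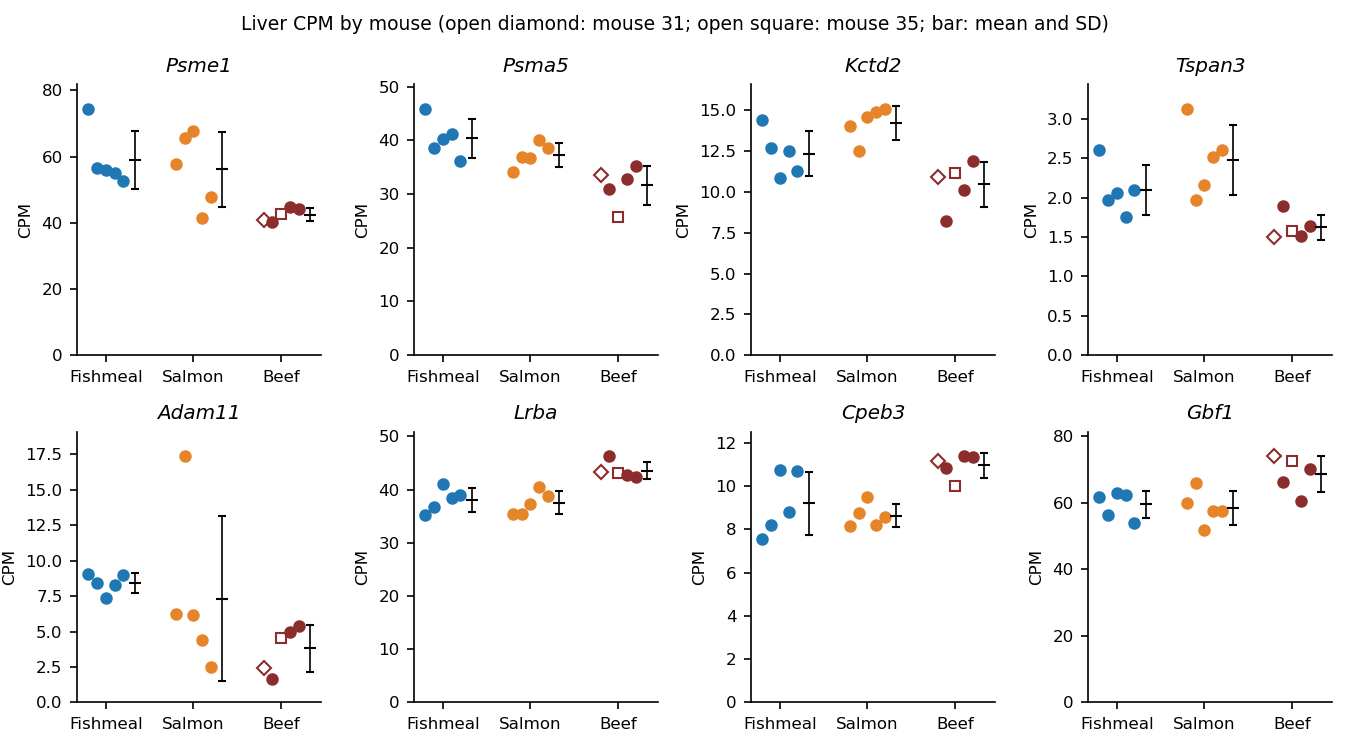
CPM of 8 shared genes in each of the 15 HFD-fed livers by diet, with the mean and SD beside the points (open diamond, mouse 31; open square, mouse 35). For Lrba all beef livers, with mouse 31 counted among them, lie above all fish livers, while for Psme1 and Adam11 some salmon filet livers lie within the beef range.

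Lrba had the smallest p of the protein coding genes on the shared lower list. The 28 shared lower genes also held larger differences in genes outside the protein coding class, among them Ighg2c (log2 fold change -1.97), an immunoglobulin constant gene, and the processed pseudogenes Apoo-ps (-1.45) and Gm10705 (-1.34). The value of Ighg2c rested on mouse 35, at 3.61 CPM: its median was 0.30 CPM with beef and 0.27 with fish. Lrba, which encodes a large protein that protects surface receptors from lysosomal degradation, ranged from 35.2 to 41.0 CPM with fish (median 37.9) and was 43.3, 46.2, 43.2, 42.7 and 42.4 in beef mice 31, 32, 35, 39 and 40. All fish livers were below all beef livers with mouse 31 counted as beef. With mouse 31 as salmon filet the groups would overlap, since its 43.3 CPM lies above mice 35, 39 and 40. The log2 fold change was -0.21 ± 0.06 (SE, unadjusted p = 0.00393 in edgeR), -0.19 with fishmeal and -0.23 with salmon filet. Gbf1, the exchange factor that activates ARF at the Golgi, ranged from 51.7 to 65.9 CPM with fish and was 73.9, 66.2, 72.6, 60.3 and 69.9 with beef, a log2 fold change of -0.22 ± 0.07. Sec16a, a scaffold of endoplasmic reticulum exit sites, had -0.20 ± 0.08, and Atl1, a GTPase that fuses tubules of the endoplasmic reticulum, -0.41 ± 0.13. With an offset for gene length the estimate for Lrba was -0.12 (unadjusted p = 0.0716 in edgeR) and that for Gbf1 was -0.16 (unadjusted p = 0.0543 in edgeR).

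Other named lower genes had varied roles. Cpeb3, an RNA-binding translational regulator, ranged from 7.54 to 10.7 CPM with fish and from 10.0 to 11.4 with beef, a log2 fold change of -0.30 ± 0.09 (SE). Prrc1, which encodes a Golgi-associated protein, had -0.20 ± 0.07, and Ick, a kinase of primary cilia, had -0.21 ± 0.07. Mkl2, a coactivator of serum response factor, and Fryl, a furry family protein, had -0.21 ± 0.08 and -0.20 ± 0.07. Without mouse 32 the value of Mkl2 was -0.15 (unadjusted p = 0.0674 in edgeR). A further pair of genes hung on mouse 32. Clec1a, a lectin-like receptor of endothelial and myeloid cells, had -0.43, and -0.28 (unadjusted p = 0.0693 in edgeR) without that liver. Dpy19l3, a C-mannosyltransferase, had -0.45, and -0.24 (unadjusted p = 0.0881 in edgeR) without mouse 32. Under the sample label of mouse 31, Gbf1, Prrc1, Ick, Mkl2 and Fryl no longer had an unadjusted p under 0.05, the largest being 0.122 for Mkl2. The immunoglobulin constant gene Ighg2c and the ribosomal RNA gene ENSMUSG00000106106, both in the shared lower list, had their highest values in mouse 35.

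The shared genes differed in length. Exon length had a median of 2757.5 bases for the 30 shared higher protein coding genes and of 10022 bases for the 14 lower ones, against 4439 for all protein coding genes tested. When protein coding genes with a mean of at least 1 CPM were ordered by exon length and divided into 5 groups of like size, the shared higher genes numbered 11, 6, 4, 1 and 0 from the shortest to the longest group and the shared lower genes 0, 0, 1, 1 and 11. The whole transcriptome leaned the same way. The median log2 fold change of fish against beef was 0.10 in the shortest group and -0.07 in the longest, with 0.11 and -0.04 for fishmeal and 0.10 and -0.09 for salmon filet. The lean was carried unevenly by the livers. The median of the shortest group minus that of the longest was 0.50 on the log2 CPM scale in mouse 12 (fishmeal), 0.21 in mouse 25 (salmon filet), -0.33 in mouse 32 and -0.27 in mouse 31 (both beef), and -0.23 in mouse 14 (fishmeal).

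**Figure D2:**
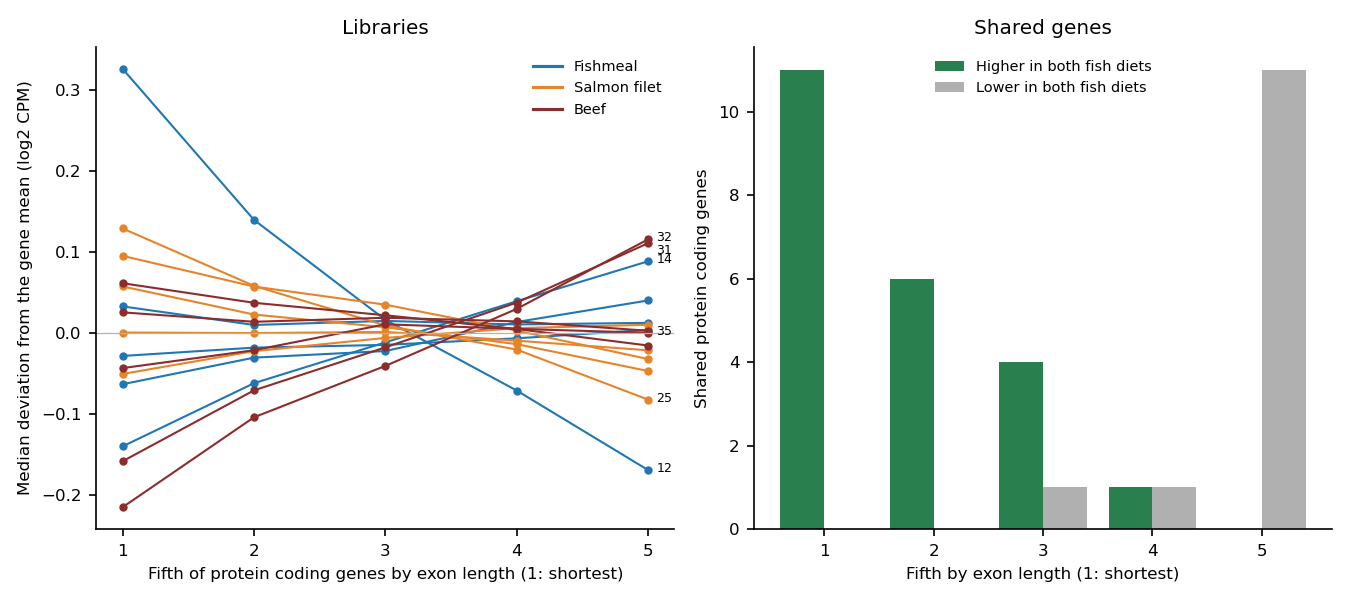
Left, median deviation from each gene's mean (log2 CPM) by group of exon length (5 groups, shortest to longest), a line for each of the 15 livers, with mice 12, 14, 25, 31, 32 and 35 numbered. Right, number of shared protein coding genes in each group: 11 of the higher genes lie in the shortest group and 11 of the lower genes in the longest.

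The estimates were also computed with an offset for each library's trend on length, chosen after the data were seen. The medians became 0.03 in the shortest group and -0.0077 in the longest, and the shared list held 58 genes, 38 of which were among the 73. Psme1 (0.36, unadjusted p = 0.00109), Psma5 (0.20, unadjusted p = 0.0412), Kctd2 (0.31, unadjusted p = 0.00307), Tspan3 (0.48, unadjusted p = 0.00384) and Adam11 (1.07, unadjusted p = 0.00747) kept an unadjusted p under 0.05 in edgeR. From the shortest to the longest group, the shared higher genes then numbered 5, 3, 5, 2 and 0 and the shared lower genes 3, 2, 1, 1 and 0, so the 11 in the longest group became 0. Prrc1 (-0.13, unadjusted p = 0.12), Fryl (-0.12, unadjusted p = 0.0645), Lrba and Gbf1 no longer had an unadjusted p under 0.05 in edgeR. The named lower genes Cpeb3, Clec1a, Atl1, Mkl2, Dpy19l3 and Ick kept such a p, with estimates of -0.27, -0.42, -0.36, -0.16, -0.37 and -0.15. These p-values, like those above, are for the pooled fish diets. Atl1, Mkl2, Dpy19l3 and Ick lie in the longest group, so with the offset they were no longer shared by the rule. With mice 12 and 32 both left out, 118 genes were shared and 28 of these were among the 73. Processed pseudogenes and other pseudogenes made up 26.7% of the shared higher and 28.6% of the shared lower genes against 6.63% of genes tested, and their reads may be shared with parent genes. Whether RNA integrity or library preparation differed between these livers was not tested.

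Cholesterol synthesis was the clearest case of fish diets that did not move together. With fishmeal, 8 of the 21 genes on the list had an adjusted p under 0.05 against beef, all of them lower, and with salmon filet 0 had. The median log2 fold change was -0.94 with fishmeal, 0.25 with salmon filet and, for the pooled fish diets, -0.29, so the pooled value describes neither group. Lss, the cyclase that closes the sterol ring, was 40.0, 34.0, 27.5, 32.7 and 33.04 CPM in the fishmeal livers. The salmon filet livers gave 78.1, 76.0, 88.2, 93.2 and 93.0, and the beef livers 73.6, 80.3, 86.8, 53.0 and 68.0. All fishmeal livers were below all others, and salmon filet overlapped with beef. The log2 fold change of Lss against beef was -1.11 ± 0.13 (SE, adjusted p = 0.0033 in edgeR) with fishmeal and 0.23 ± 0.13 with salmon filet, and the fish diets differed by -1.34 (adjusted p = 0.000244 in edgeR). Pooled, it was -0.29 ± 0.29 with a 95% interval from -0.90 to 0.32.

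**Figure D3:**
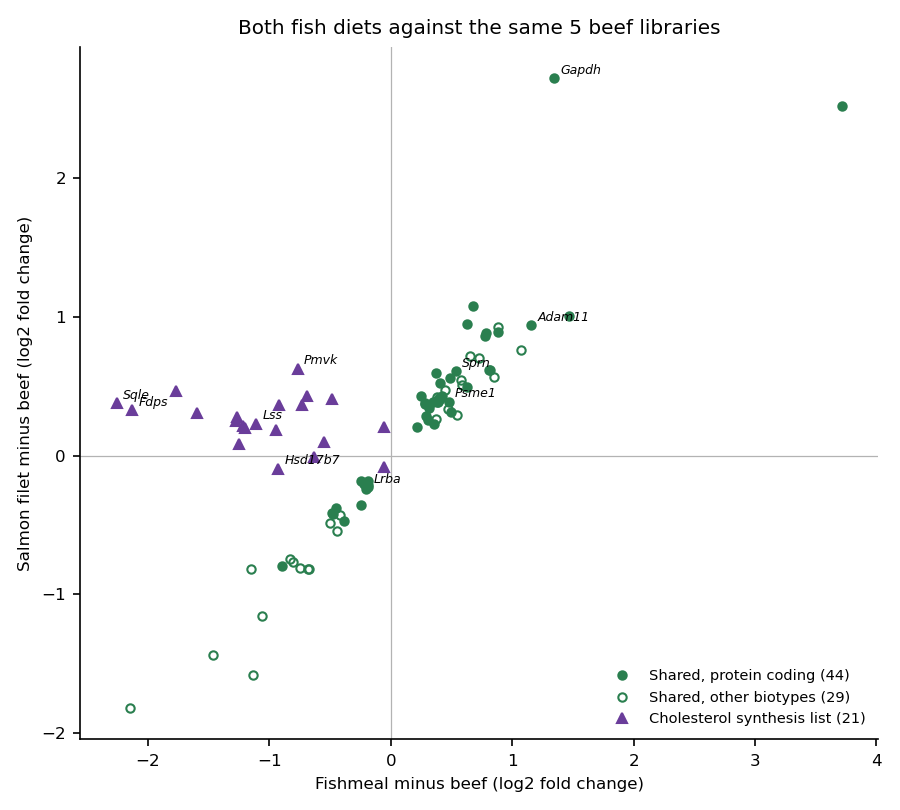
Log2 fold change against the same 5 beef libraries with fishmeal (x axis) and with salmon filet (y axis). Green points are the 73 shared genes, filled for the 44 that are protein coding, and purple triangles the 21 genes of the cholesterol synthesis list, of which most lie left of 0 and above it; the place of the shared genes is set by the rule that chose them.

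The other enzymes repeated this pattern. Fdps, which makes farnesyl diphosphate, lay between 2.40 and 3.72 CPM in fishmeal livers, between 12.4 and 22.4 in salmon filet livers and between 7.00 and 17.6 in beef livers, with log2 fold changes of -2.13 and 0.33. Sqle, which oxidises squalene, had -2.26 and 0.38, Msmo1, a sterol demethylase, -1.22 and 0.22, Nsdhl, which completes the demethylation, -1.28 and 0.25, and Dhcr7, the last reductase of the pathway, -1.20 and 0.20. Hsd17b7, a ketosteroid reductase of the pathway, was the only list member with an unadjusted p under 0.05 in the pooled comparison (log2 fold change -0.45, unadjusted p = 0.0454 in edgeR), and its values were -0.93 with fishmeal and -0.09 with salmon filet. The pooled value of Hsd17b7 was -0.24 (unadjusted p = 0.338 in edgeR) with mouse 31 as salmon filet, and it had an unadjusted p under 0.05 in 14 of 30 alternative settings. Stard4, a cytosolic sterol carrier, came nearest to lying on the same side in both: it fell with fishmeal (log2 fold change -0.56, adjusted p = 0.0455 in edgeR), was -0.15 ± 0.10 (SE) with salmon filet and was -0.34 ± 0.12 for all fish, or -0.28 (unadjusted p = 0.0562 in edgeR) with mouse 31 as salmon filet. Strc, which encodes the ear protein stereocilin, and the long non-coding RNA gene 1810008I18Rik were the only genes called with fishmeal that were outside the sterol lists, at -2.38 and -1.14 with fishmeal and -0.69 and 0.11 with salmon filet. The number of calls changed with the mice included: leaving out 1 mouse at a time gave 3 to 12 calls with fishmeal, with 3 calls if mouse 16 or 35 was dropped, 4 for mouse 13, 5 for mouse 14, 20, 22 or 32, 6 for mouse 25 or 31 and 7 for mouse 26 or 40. With mice 31 and 35 both dropped edgeR called 0, with 431 genes at an unadjusted p under 0.05.

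The 7 genes that the study named for either fish diet against beef were mixed. The study chose them on these samples, so their direction is no independent evidence. All 7 pooled estimates were above 0, with a median of 0.54, but the medians of the single contrasts were -0.24 with fishmeal and 0.94 with salmon filet. Fabp5, a fatty acid binding protein, was 12.1, 8.88, 4.85, 8.79 and 7.08 CPM in the fishmeal livers. The salmon filet livers gave 24.5, 50.3, 38.0, 20.7 and 44.3, and the beef livers 10.4, 16.6, 14.8, 8.23 and 15.8. Every salmon filet liver was above every beef liver, while the fishmeal livers overlapped with beef. Pdzk1ip1, a small membrane protein that binds PDZ domains, Nfe2, a transcription factor of the blood lineage, and Pmvk, a kinase of the mevalonate pathway, differed between the fish diets like Fabp5, by -1.63, -2.65 and -1.39 (adjusted p = 0.00912, 0.00273 and 0.00273 in edgeR) against -2.08 for Fabp5. Cyp2a22, a cytochrome P450, leaned the other way: it was 324 to 477 CPM with fishmeal, above the 203 to 249 of the beef livers, and 67.0 to 374 with salmon filet. Only Adam11 of the 7 was shared.

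Genes of fatty acid handling had small differences in the pooled comparison. On the list of fatty acid binding, uptake and lipid droplet genes, 15 of 15 tested members had estimates above 0, with a median log2 fold change of 0.07, and 2 had an unadjusted p under 0.05, both higher, beside 50.9% and 1.52% of all genes. Mogat1, a monoacylglycerol acyltransferase, had 0.90 ± 0.36 (SE) and G0s2, an inhibitor of adipose triglyceride lipase, 0.48 ± 0.21. Mogat1 was 0.64 (unadjusted p = 0.143 in edgeR) with mouse 31 as salmon filet and 0.74 (unadjusted p = 0.0708 in edgeR) without that mouse. For G0s2 the unadjusted p stayed under 0.05 in 8 of the 15 fits that left out 1 mouse. G0s2 ranged from 39.2 to 101.5 CPM with fish and was 65.4, 26.8, 54.6, 67.7 and 46.9 with beef, and the groups overlapped. Of the lipogenesis list, 9 of 19 were above 0 with a median of -0.01, which again joined -0.45 with fishmeal and 0.15 with salmon filet. Gpam, the first acyltransferase of glycerolipid synthesis, had -0.31 ± 0.17 and Scd2, a stearoyl-CoA desaturase, 0.28 ± 0.16. Of the polyunsaturated fatty acid list, whose members Fads2 and Elovl2 make long-chain fatty acids that fish supplies, 6 of 10 were below 0 with a median of -0.10. Fads2 was -0.35 ± 0.21 for all fish, -0.65 with fishmeal and -0.10 with salmon filet. The PPAR-alpha list had a median of 0.06, with 17 of 27 above 0, while Ppara itself was -0.40 ± 0.22. The part of gene length in these lists was not tested, and the shortest length group had a median of 0.10.

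**Figure D4:**
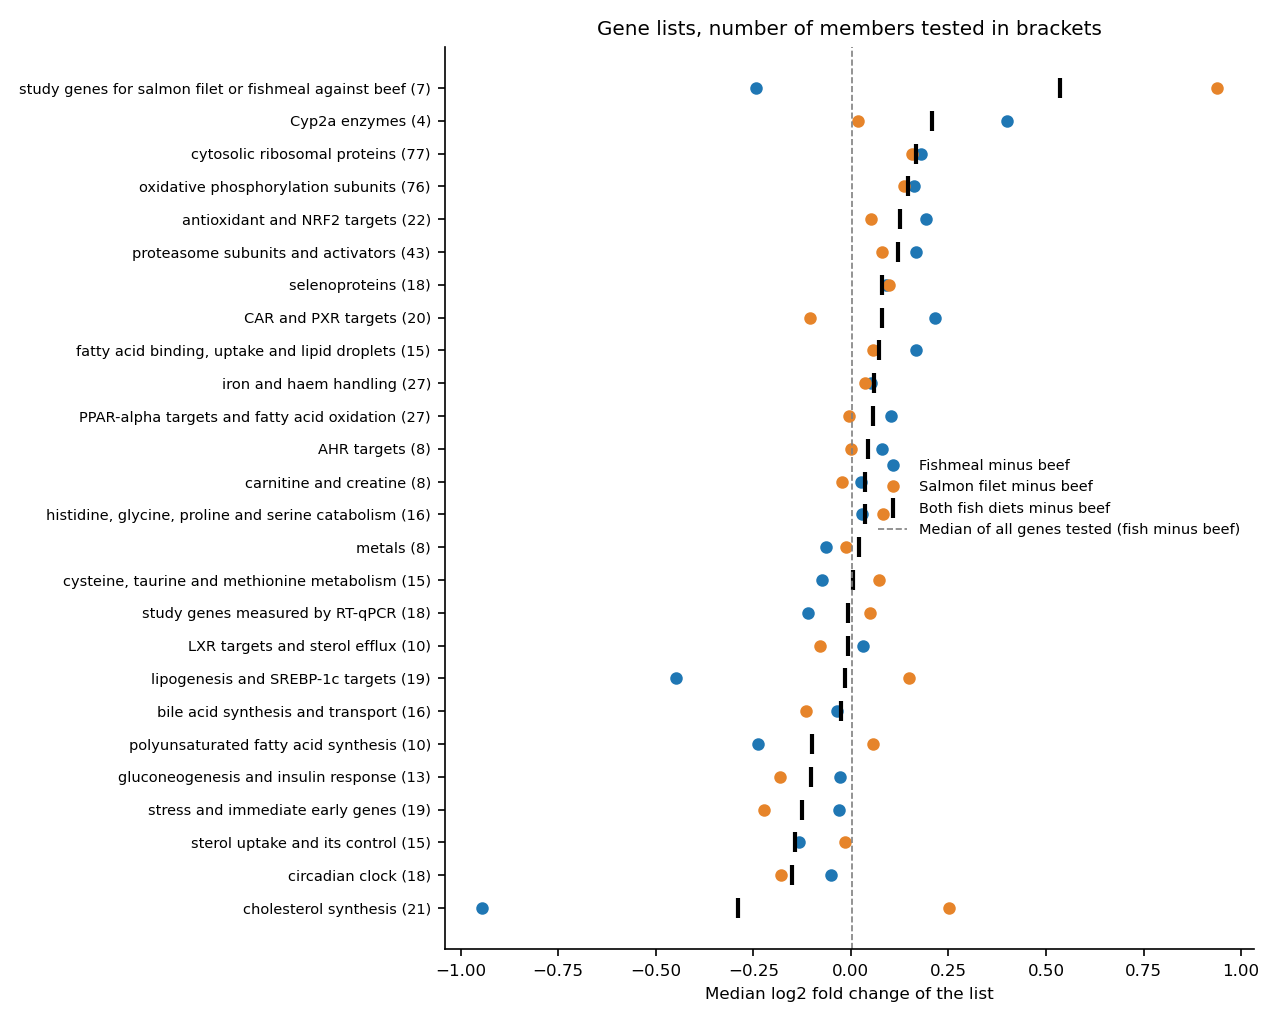
Median log2 fold change against beef of each gene list for the pooled fish diets (black bar), fishmeal (blue) and salmon filet (orange), with the number of members tested in brackets and the median of all genes tested, 0.0026, as a dashed line. The list of 7 study genes was chosen by the study on these livers, and the proteasome, ribosomal and oxidative phosphorylation lists were drawn up after the values were seen.

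Of 13 genes on the gluconeogenesis and insulin response list, 8 had estimates below 0, and over all genes tested 50.9% had estimates above 0. An unadjusted p under 0.05 was found for 4 of the 13, all lower, beside 1.51% of all genes. Igfbp1, a binding protein that insulin represses, ranged from 11.3 to 64.4 CPM with fish (median 20.4) and was 77.2, 54.2, 48.5, 33.8 and 32.1 with beef, with the highest value in mouse 31. Its log2 fold change was -0.83 ± 0.36 (SE), and -0.39 (unadjusted p = 0.382 in edgeR) with mouse 31 as salmon filet. Insr, the insulin receptor, was -0.19 ± 0.08, or -0.17 (unadjusted p = 0.093 in edgeR) with mouse 31 as salmon filet. Irs2, an adaptor of that receptor, was -0.51 ± 0.24 and Pck1, the cytosolic gluconeogenic carboxykinase, -0.35 ± 0.16. The value of Irs2 in mouse 35, 61.7 CPM, was the highest of the 15 livers, and the other 14 lay between 12.7 and 33.7. None of the 4 genes was shared by the rule. The circadian clock list, whose members swing over the day, had 13 of 18 estimates below 0 and a median of -0.15. Per1, a core clock repressor, spanned 7.30 to 29.2 CPM with fish and 3.20, 9.52, 26.5, 33.2 and 38.0 within the beef group, so the beef livers alone held the whole fish range. The hour at which each liver was taken was not used here, and its part in the insulin-responsive genes was not tested.

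Of 22 antioxidant and NRF2 target genes, 20 had estimates above 0, beside 50.9% of all genes, with a median of 0.13, 0.19 with fishmeal and 0.05 with salmon filet. Gstm3, a glutathione transferase, was the only member with an unadjusted p under 0.05 (log2 fold change 0.70 ± 0.27 SE), and it was 0.58 (unadjusted p = 0.0712 in edgeR) with mouse 31 as salmon filet. It ranged from 17.8 to 61.0 CPM with fish and was 17.0, 23.6, 19.6, 22.5 and 14.7 with beef. Gstm1 had 0.30 ± 0.16. Selenoproteins depend on the selenium that fish also provides. Their list, which besides them holds the selenium-binding protein genes Selenbp1 and Selenbp2, had 16 of 18 above 0 with a median of 0.08. It was led by the glutathione peroxidases Gpx4 (0.29 ± 0.15) and Gpx1 (0.35 ± 0.21). Of 20 CAR and PXR targets, 15 were above 0 (median 0.08, with 0.22 for fishmeal and -0.10 for salmon filet), and Cyp2c29 (0.33 ± 0.13) and Cyp3a44 (0.68 ± 0.29), both drug-metabolising cytochromes P450, had an unadjusted p under 0.05. Cyp3a44 was 0.53 (unadjusted p = 0.122 in edgeR) with mouse 31 as salmon filet. The 4 Cyp2a enzymes were all above 0 with a median of 0.21, and the near-identical members of these families may share reads.

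Many short genes of abundant complexes gave the same direction, and the same livers led them. Of 77 cytosolic ribosomal protein genes, 75 were above 0 with a median of 0.17, and of 76 oxidative phosphorylation subunit genes 74 were above 0 with a median of 0.15. The difference between livers within a diet was larger. The ribosomal list level was 0.58 on the log2 CPM scale in mouse 12 and -0.22 in mouse 16, both fed fishmeal, and -0.57 in mouse 32 and 0.17 in mouse 40, both fed beef. Rpl7a (0.51) and Rps6 (0.26) were the only ribosomal genes with an unadjusted p under 0.05, and no oxidative phosphorylation gene did. The antioxidant list was also highest in mouse 12, at 0.41.

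**Figure D5:**
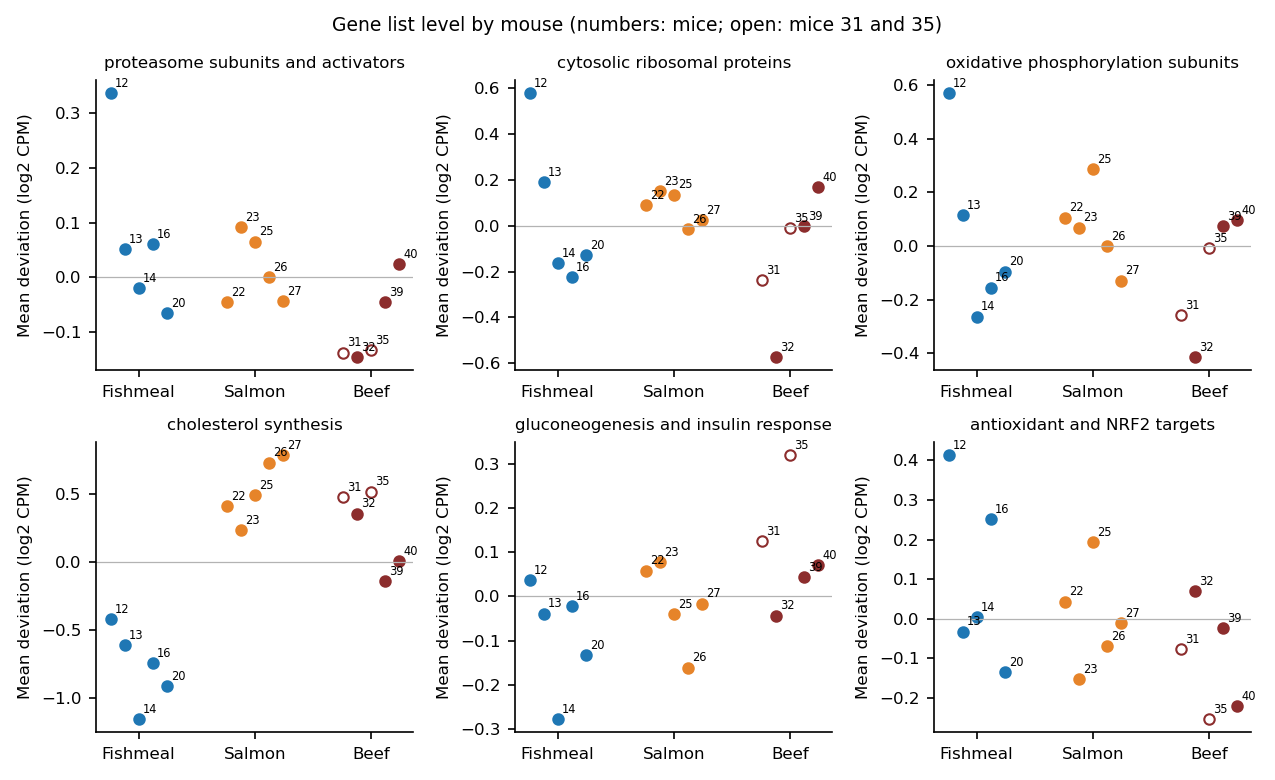
Level of 6 gene lists in each liver, as the mean over list genes of the deviation from the gene mean (log2 CPM), by diet, with mouse numbers and with mice 31 and 35 open. Mouse 12 is highest and mouse 32 lowest for the ribosomal and oxidative phosphorylation lists, and for cholesterol synthesis all fishmeal livers lie below all salmon filet and beef livers.

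The remaining lists had medians on either side of the 0.0026 of all genes. Sterol uptake and its control had a median of -0.14 with 12 of 15 below 0, and LXR targets -0.0076 with 6 of 10 below 0. For bile acid synthesis and transport the median was -0.02 with 12 of 16 below 0, and Cyp8b1, the sterol hydroxylase that sets cholic acid output, was -0.67 ± 0.38 (SE). Slco1a1, an organic anion transporter, was -1.39 ± 0.89 and rested on mouse 35, whose 30.3 CPM was the highest of the 15 livers: without it the estimate was 0.77. Iron and haem handling had a median of 0.06, AHR targets 0.04, carnitine and creatine 0.04, and histidine, glycine, proline and serine catabolism 0.04. Metals had 0.02 and cysteine, taurine and methionine metabolism 0.0050. Stress and immediate early genes had -0.12, where Myc was -0.48 ± 0.23 and Hspa1b, a heat shock protein, -0.73 ± 0.41 with its highest value, 3.92 CPM, in mouse 35. The RT-qPCR list of 18 genes had a median of -0.0076, with 0 at an unadjusted p under 0.05.

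Hepatocyte markers were abundant in every liver. The 7 hepatocyte markers summed to 85463 to 112450 CPM with fish and 92121 to 109580 with beef, with a median log2 fold change of -0.04. Stellate cell markers were above 0 for 7 of 7 (median 0.22, summed 300 to 488 CPM with fish and 303 to 412 with beef), and the matrix proteoglycan Dcn had an unadjusted p under 0.05. Of the neutrophil markers 2 of 6 had enough counts to test, both above 0 with a median of 0.95, and their sum was 0.33 to 2.07 CPM with fish and 0.20 to 0.67 with beef. The calprotectin subunit S100a8 had a log2 fold change of 1.224 (unadjusted p = 0.0234 in edgeR). Median log2 fold changes were 0.03 for Kupffer cells and macrophages, -0.11 for T cells, -0.21 for B cells (5 of 5 below 0), -0.05 for plasma cells, -0.11 for liver endothelial cells, 0.16 for cholangiocytes (5 of 5 above 0) and 0.24 for red blood cells. Of adipocyte, exocrine pancreas and muscle markers 1 each could be tested, Car3 at -0.0021, Cela1 at -0.14 and Mylpf at 0.37. Car3 ranged from 1587 to 4931.5 CPM with fish and from 2062 to 4394.6 with beef. The other adipocyte markers were not tested, so Car3 by itself cannot be read as adipocyte content. The part of cell composition in the shared genes was not tested.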

How the data were processed

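Liver RNA was prepared with a strand-specific mRNA kit. The authors trimmed the reads and, per the labels, mapped them with HISAT2 1.2.1 and summarised them over Ensembl genes with featureCounts 1.4.6-p1, which gave the deposited raw counts. The handling of strand and of reads fitting several genes is not given in the sources used here. A second deposited table holds TPM (counts scaled by the authors to gene length and library size) and was used for alternatives alone. The labels name the human build GRCh38, whereas 55227 of 55487 gene identifiers were found in GENCODE M21 (GRCm38), from which exon lengths were taken, and 418 of 419 listed symbols were found.

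The counts of the 15 HFD-fed livers were tested in R 4.3 with edgeR 4.0 (filterByExpr at a minimum count of 10, TMM, two-sided quasi-likelihood F-tests, Benjamini-Hochberg adjustment over all genes tested, call at an adjusted p under 0.05). Fish against beef was fitted with 2 groups, and the single fish diets with 3. SE was taken as the log2 fold change over the root of F. CPM used TMM factors over all 20 libraries. A list level is the mean deviation of log2(CPM + 0.5). Each library is 1 mouse, and in the fit of 3 groups p-values measure the spread between mice of a diet. In the fit of 2 groups that spread also holds any difference between the fish diets. Where these differ, as for Lss, the pooled SE and interval are wider.

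Genes are named by rule: every gene called in fish against beef (none was), the 10 protein coding shared genes in each direction with the smallest p and a mean CPM of at least 1, the study's genes, and 2 genes with the smallest p in each list. The members and lists were chosen with earlier results of these data known. Genes outside this rule, such as those called with fishmeal, were named after their values were seen. A few genes that the rule selects are not reported here.

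Alternatives were DESeq2 1.42, DESeq2 size factors or upper quartile factors in edgeR, all genes with at least 1 count, protein coding genes alone, limma 3.58 on log2(TPM + 1) or log2(TPM + 0.1) for genes averaging at least 0.5 TPM, a fit of 3 diet groups or of all 20 libraries, mouse 31 as labelled, mice 31 and 35 left out, and each mouse left out in turn. Offsets for gene length and GC content, leaving out mice 12 and 32, and DESeq2 on genes with at least 10 counts were chosen after seeing the data. The scripts were tested on simulated data. Promoter sequences are from RefSeq on GRCm38.p6.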

Additional observations from a re-analysis of the deposited data

Results flagged for a closer look

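A liver stood far from the others of its diet in 10 of 120 groups of 5 livers checked (8.33%), where chance gives about 1 in 20. Mouse 12, fed fishmeal, had 74.3 CPM of Psme1 against 52.7 to 56.5 in the other fishmeal livers, 3.42 of Mocs3 against 2.05 to 2.36, and 214 of Mlxipl, the carbohydrate response factor, against 455 to 482. Mouse 32, fed beef, had 46.2 CPM of Lrba against 42.4 to 43.3 in the other beef livers, 2.72 of Clec1a against 1.64 to 1.93, and 165 of Cyp7a1, the rate-limiting enzyme of bile acid synthesis, against 88.1 to 107. Among the salmon filet livers, mouse 22 had 2.65 CPM of Sprn against 1.52 to 1.81 and 1.755 of Atl1 against 1.504 to 1.56, mouse 23 had 17.4 of Adam11 against 2.52 to 6.22, and mouse 27 had 2.215 of Cyp1b1 against 0.703 to 0.914.

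The fish diets differed from each other, in edgeR's test, for 6 of the named genes. The log2 fold change of fishmeal against salmon filet was -2.46 for Fdps (adjusted p = 0.00119), -2.08 for Fabp5 (adjusted p = 0.00273), -1.39 for Pmvk (adjusted p = 0.00273), -2.65 for Nfe2 (adjusted p = 0.00273), -1.63 for Pdzk1ip1 (adjusted p = 0.00912) and -0.83 for Hsd17b7 (adjusted p = 0.0279). All 6 had lower values with fishmeal. Fdps, Fabp5, Pmvk, Nfe2 and Pdzk1ip1 were named because the study picked them from these same livers. Their direction and p-values are therefore no independent evidence.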

How the results depend on the processing

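Under all 30 alternatives 0 genes passed adjustment in fish against beef, with 393 to 1249 at an unadjusted p under 0.05. The 508 genes of edgeR compare with 771 by DESeq2. The smallest adjusted p ranged from 0.125 on log2(TPM + 1) to 1.00. The cause of the changes below was not tested. Shared genes numbered 193 with all genes of at least 1 count, 125 with DESeq2 (127 on genes of at least 10 counts), 126 and 122 on log2(TPM + 1) and log2(TPM + 0.1), 114 with the GC offset, 118 without mice 12 and 32 and 48 among protein coding genes alone, against 73, and 47 to 138 when each mouse was left out in turn. Genes called with fishmeal numbered 31 with DESeq2 (34 on genes of at least 10 counts), 7 on either TPM scale, 3 in the fit of all 20 libraries, 7 with mouse 31 as salmon filet, 2 without mice 12 and 32 and 0 without mice 31 and 35, against 11, and 3 to 12 with each mouse left out. With salmon filet DESeq2 called 2 genes under either filter and no other setting called any. The median of the 7 study genes was 0.75 without mice 12 and 32 and 0.54 in the main comparison, with 0.50 to 0.72 when each mouse was left out. The other medians of lists moved by less than the spread between livers. The estimates of 15 named genes that did not pass the test changed sign. With all genes of at least 1 count the value was 0.00576 for Nr1h3, 0.00914 for Cyp1b1 and 0.0108 for Nr1h2. With DESeq2 the value was 0.00193 for Cyp1b1. With log2(TPM + 1) the value was -0.0616 for Pmvk, 0.0475 for Nr1h3, 0.00133 for Abcg1, -0.22 for Chrna4 and 0.0717 for Nr1h2. With log2(TPM + 0.1) the value was -0.0662 for Pmvk, 0.048 for Nr1h3, -0.56 for Chrna4 and 0.0761 for Nr1h2. In the fit of 3 diet groups the value was -0.0699 for Pmvk, -0.0969 for Nfe2 and -0.45 for Chrna4. In the fit of all 20 libraries the value was -0.0732 for Pmvk, -0.10 for Nfe2 and -0.45 for Chrna4. With mouse 31 as salmon filet the value was -0.075 for Col1a1, -0.0683 for Mlxipl, -0.16 for Srebf1, 0.11 for Cyp1b1, -0.00336 for Cyp1a1 and -0.045 for Gamt. Without mice 31 and 35 the value was 0.0798 for Nr1h3, 0.0678 for Srebf2, 0.31 for Cyp1b1, 0.14 for Nr1h2, 0.54 for Slco1a1 and -0.0379 for Gamt. With the length offset the value was 0.0191 for Cyp1b1. With the GC offset the value was -0.0101 for Col1a1 and 0.00928 for Cyp1b1. Without mice 12 and 32 the value was -0.0813 for Col1a1 and -0.14 for Srebf1. With DESeq2 on genes of at least 10 counts the value was 0.0019 for Cyp1b1. With each mouse left out the ranges were Pmvk -0.0199 to 0.20, Col1a1 -0.12 to 0.36, Nr1h3 -0.0722 to 0.12, Mlxipl -0.0587 to 0.11, Srebf1 -0.10 to 0.18, Abcg1 -0.13 to 0.0541, Cyp1b1 -0.21 to 0.13, Chrna4 -0.0752 to 0.76, Nr1h2 -0.12 to 0.18, Slco1a1 -1.75 to 0.77 and Hspa1b -0.96 to 0.0173. The other 2376 estimates kept their direction. No paired analysis was possible because each mouse number occurs in a single group. With 5 beef livers, differences within the intervals given, and larger ones, may have failed to pass adjustment.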
